A study of Mus musculus with 12 samples.

Results

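Nuclear transfer RNA (tRNA) genes made up a small set of the places where 3 RNA-binding proteins were mapped in N2A cells, a mouse neuroblastoma line. A cluster (a window of crosslinked reads) was counted here when its centre lay in a gene that the mm10 (GRCm38) annotation names n-T, followed by the amino acid letter and the anticodon. By this rule 644 of 124941 clusters in 3 tables were tRNA clusters: 166 of 49260 for Rbm38, 231 of 36227 for Puf60 with exon 5 and 247 of 39454 for Puf60 without exon 5. The members were chosen by position alone and not by any measured value.

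The assay was iCLIP, in which UV light joins a protein to the RNA it touches, the tagged protein is pulled down and the joined RNA is sequenced. Each protein carried a Flag tag and was placed in the cells with the Flp-in system under doxycycline control, so all groups express an added, tagged copy. Flag-Rbm38 and Flag-Puf60 without exon 5 were induced for 24 h, while for Flag-Puf60 with exon 5 induction lasted 48 h in the CLIP libraries and 24 h in the input. All groups shared doxycycline at 1 µg/ml, crosslinking at 150 mJ/cm2 and 254 nm, partial RNase I digestion and the Flag M2 antibody. Each protein had its own single size-matched input library, and the labels do not say whether CLIP replicates came from separate cultures.

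Transfer RNAs carry amino acids to the ribosome, where the 3 bases of the anticodon read the codon. Their genes are transcribed by RNA polymerase III from promoter elements inside the gene, the A box and the B box, and the B box letters become the T loop of the folded RNA. Most anticodons are served by several gene copies with nearly the same sequence, so reads from copies can be hard to tell apart. Puf60 is known as a splicing factor that helps U2AF recognise the polypyrimidine tract, and Rbm38 as an RNA recognition motif protein that binds messenger RNA.

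The 3 tRNA genes below show what such a member looks like, and they are shown because they are the listed genes whose whole sequence could be read here, from promoter windows of neighbouring genes in RefSeq (GRCm38.p6). Each is written 5′ to 3′ on its own strand, with the anticodon and then the B box letters in capitals. The B box was searched as GGTTC, any base, A, any 2 bases and CC. n-TRtcg5 is an arginine tRNA gene at chr7:79466419-79466491 on the plus strand, n-TAagc16 an alanine gene at chr13:21222586-21222657 on the plus strand, and n-TVcac9 a valine gene at chr13:23446142-23446214 on the minus strand.
n-TRtcg5: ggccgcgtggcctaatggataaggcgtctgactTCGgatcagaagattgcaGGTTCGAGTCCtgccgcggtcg
n-TAagc16: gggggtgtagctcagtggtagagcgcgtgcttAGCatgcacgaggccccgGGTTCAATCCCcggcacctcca
n-TVcac9: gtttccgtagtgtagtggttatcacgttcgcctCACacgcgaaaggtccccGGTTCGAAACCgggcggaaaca

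These 3 genes already differed between the proteins. In the authors' deposited tables n-TRtcg5 had a log2 fold of -1.69 for Rbm38, 0.69 for Puf60 with exon 5 and -1.18 for Puf60 without exon 5, and only the value for Puf60 with exon 5 was enriched. The alanine gene n-TAagc16 was high for the other protein, with 1.71 for Rbm38 (enriched), -1.20 for Puf60 with exon 5 and -2.65 for Puf60 without exon 5, as the authors' deposited tables give them. The valine gene n-TVcac9 was listed only for Puf60 without exon 5, at -1.90 in the authors' deposited table. The B box letters, searched on both strands, occurred in 261 of 32851 RefSeq promoter windows (0.794%), and the strand they gave was the one read from the cluster grid at 5 of 5 listed tRNA genes where a window held the B box. In 3 other listed genes that a window touched, no B box was found in the part it held.

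The tables give 1 log2 fold, 1 p-value and 1 adjusted p-value per cluster, read here as CLIP over size-matched input, a direction the header does not state. A cluster is called enriched where the deposited adjusted p-value was under 0.05, and below input where 1 minus the deposited p-value, adjusted by the Benjamini-Hochberg method over the whole table, was under 0.05. No value per library was given, so no cluster has a spread between replicates, the depth is unknown, and no difference between proteins could be tested across replicates. Single values below therefore stand without an error, and medians are given with quartiles over clusters, which are not replicates.

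Most tRNA clusters were not enriched over input for any of the 3 proteins, and for Puf60 without exon 5 nearly all lay below it. For Rbm38, 42 of 166 tRNA clusters were enriched (25.3%, 95% Wilson interval 19.3 to 32.4), beside 50.9% of all clusters in that table. For Puf60 with exon 5, 58 of 231 were enriched (25.1%, interval 20.0 to 31.1), beside 39.1% of its table. For Puf60 without exon 5, 3 of 247 were enriched (1.21%, interval 0.414 to 3.51), beside 36.1% of its table. The intervals cover counting error only and treat the copies as independent, which they are not.

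The clusters below input ran the other way. They numbered 84 of 166 tRNA clusters for Rbm38 (50.6%; 11.2% of its table), 138 of 231 for Puf60 with exon 5 (59.7%; 26.2% of its table) and 226 of 247 for Puf60 without exon 5 (91.5%; 27.8% of its table). The median log2 fold of the tRNA clusters in the authors' deposited tables was -0.47 for Rbm38 (quartiles -1.37 and 1.31), -0.78 for Puf60 with exon 5 (-1.86 and 0.42) and -1.88 for Puf60 without exon 5 (-2.73 and -1.12). The medians over all clusters of the authors' deposited tables were above 0 for all 3 proteins, at 1.04, 0.24 and 0.11 in the same order. The tRNA clusters above 0 numbered 73 of 166 for Rbm38, 78 of 231 for Puf60 with exon 5 and 13 of 247 for Puf60 without exon 5. Most tRNA clusters thus lay below 0 for each protein, while most clusters of each whole table lay above it.

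**Figure D1:**
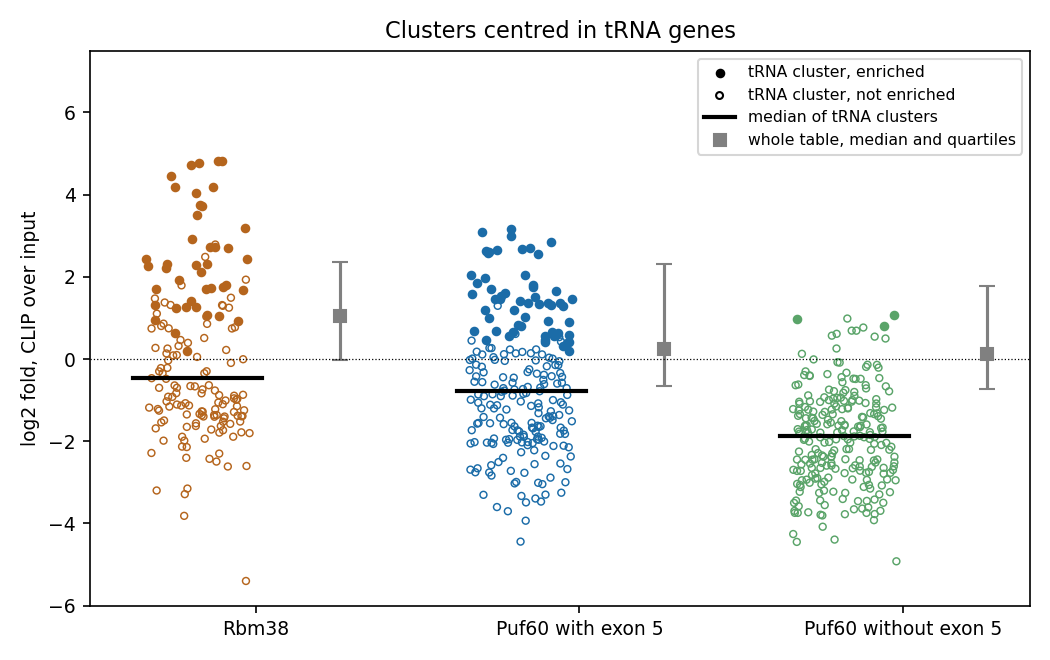
Log2 fold over input (y axis) of every tRNA cluster by protein, from the authors' deposited tables, with 166 clusters for Rbm38, 231 for Puf60 with exon 5 and 247 for Puf60 without exon 5. The cloud for Puf60 without exon 5 lies almost wholly below 0, with a median of -1.88, while the other proteins have a long upper tail.

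Of 403 n-T genes in the annotation, 253 were listed in at least 1 table and 155 in all 3. Another 72 were listed for both Puf60 isoforms and not for Rbm38, so the Rbm38 table held fewer of the tRNA genes (41.2%) than the Puf60 tables (57.3% with exon 5 and 61.3% without). All 20 amino acids and 46 of 48 anticodon families were listed somewhere. The cysteine genes were the exception in coverage, with 57 genes in the annotation and 6, 6 and 5 listed for Rbm38, Puf60 with exon 5 and Puf60 without exon 5.

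In all, 79 tRNA genes were enriched in at least 1 table, and n-TTcgt2, a threonine gene at chr13:21264580-21264653, was enriched in all 3. Among the 157 tRNA genes listed for both Rbm38 and Puf60 with exon 5, 21 were enriched for both, which is 52.5% of the 40 enriched for Rbm38 and 44.7% of the 47 enriched for Puf60 with exon 5. Over 14851 matched clusters of all kinds the same shares were 34.9% and 52.7%. Of the 37 genes enriched for Puf60 with exon 5 and not for Rbm38, 26 were listed for Rbm38 without being enriched and 11 were not listed. The 3 genes enriched for Puf60 without exon 5 were n-TTcgt2, the glutamine gene n-TQctg2 and the arginine gene n-TRccg2. All 3 were also enriched for Puf60 with exon 5, as were 91.2% of such clusters over 20187 matched clusters of all kinds. In the other direction, 3 of the 58 tRNA genes enriched with exon 5 were enriched without it (5.17%), next to 88.9% over all matched clusters.

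The isoform comparison asks whether the exon that distinguishes the Puf60 forms goes with a difference in the RNA they touch. It is confounded with induction time, 48 h against 24 h in the CLIP libraries, and with the input, 1 separate library per isoform. Isoform, induction time and input library cannot be told apart. In the 227 tRNA genes listed for both, the log2 fold was higher for Puf60 with exon 5 in 216 (95.2%) and lower in 11. The same direction held at 56.4% of 20187 matched clusters of all kinds. The median difference in the authors' deposited tables, Puf60 with minus without exon 5, was 1.36 over the tRNA genes (quartiles 0.79 and 1.80) and 0.10 over all matched clusters.

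A difference of at least 1 on the log2 scale was found at 151 of 227 tRNA genes (66.5%; 9.63% of all matched clusters), and one of -1 or less at 1 tRNA gene (5.69% of all matched clusters). The median difference was above 0 in all 46 anticodon families (0.03 to 2.30), and in all 21 families with at least 5 pairs. The lowest medians, 0.03 at n-TGacc (1 gene) and 0.10 at n-TVtac (3 genes), were no higher than that over all matched clusters (0.10). The order of the genes was much the same in both tables, with Pearson's r of 0.896 and Spearman's rho of 0.874 across 227 genes, which share sequence and source and are not independent. Other short structured RNAs did not show a median shift of that size: in the authors' deposited tables the median difference was 0.17 over 226 pairs in small nucleolar RNA (snoRNA) genes, 0.28 over 163 pairs in small nuclear RNA (snRNA) genes and 0.18 over 28 pairs in other RNA polymerase III genes. Mitochondrial tRNA genes gave only 2 pairs, with differences of 0.32 and 1.06 and a median of 0.69 in the authors' deposited tables. No test across replicates was possible for these differences.

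**Figure D2:**
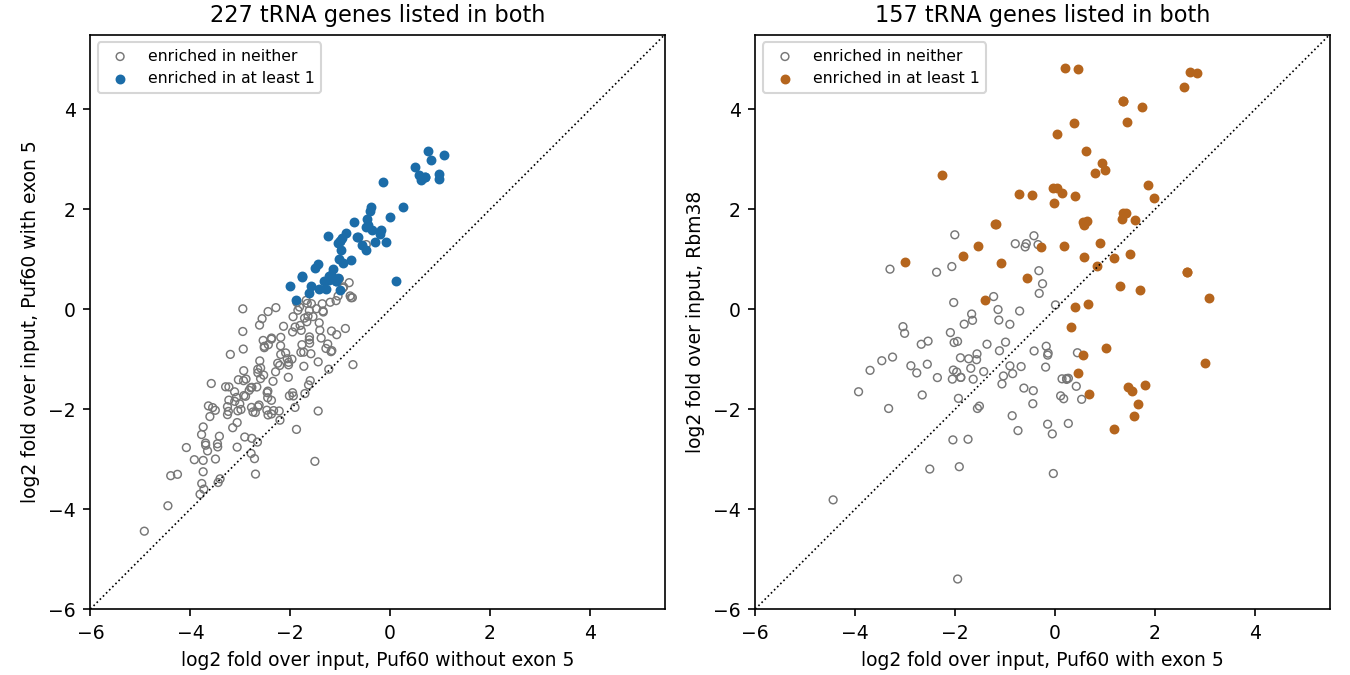
Log2 fold of each tRNA gene in 1 table against another, from the authors' deposited tables, 1 point a gene, with the line of equal values. For the Puf60 isoforms 216 of 227 genes lie on the side of Puf60 with exon 5. Their points form a narrower band than those of Rbm38 against Puf60 with exon 5.

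The arginine genes gave the most enriched tRNA clusters for Puf60 with exon 5, and they were also the most listed there. Of 24 listed arginine genes 12 were enriched, beside 3 of 17 for Rbm38 and 1 of 24 for Puf60 without exon 5. The shares over all clusters were 39.1%, 50.9% and 36.1%, in the same order. For Puf60 with exon 5 the threonine (9 of 13) and serine (9 of 16) shares were higher than that of arginine. All 3 n-TRccg copies were enriched for Puf60 with exon 5, and the highest was n-TRccg2 at chr17:23550263-23550335. In the authors' deposited tables n-TRccg2 had -1.07 for Rbm38, 2.99 for Puf60 with exon 5 and 0.81 for Puf60 without exon 5. The n-TRcct copies ran the same way (4 of 5 enriched for Puf60 with exon 5), with n-TRcct1 at -2.14 for Rbm38, 1.59 for Puf60 with exon 5 and -0.19 for Puf60 without exon 5 in the authors' deposited tables. Arginine genes with the anticodon acg ran the other way: 3 of 4 n-TRacg copies were enriched for Rbm38, 1 of 6 for Puf60 with exon 5 and 0 of 6 for Puf60 without exon 5, with medians of 2.20, -0.40 and -1.74 in the authors' deposited tables.

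For Puf60 with exon 5, 9 of 13 threonine and 9 of 16 serine genes were enriched, and 7 of 16 lysine genes, next to 39.1% of all clusters in its table. The highest tRNA value of that table belonged to a glycine gene, n-TGccc3 at chr4:32230250-32230320, with 3.17 for Puf60 with exon 5 (enriched) and 0.77 for Puf60 without exon 5 in the authors' deposited tables, and no cluster for Rbm38. Glycine genes split by anticodon: in the authors' deposited table for Puf60 with exon 5 the median was 2.60 for n-TGccc, -1.89 for n-TGgcc and -3.04 for n-TGtcc. Glycine copies that read different codons thus lay far apart within 1 table. The glutamine gene n-TQctg2 at chr3:97681459-97681530 had 0.22 for Rbm38, 3.09 for Puf60 with exon 5 and 1.07 for Puf60 without exon 5 in the authors' deposited tables.

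Serine and lysine genes again split by anticodon and by copy. The shares enriched over all clusters were 50.9% for Rbm38, 39.1% for Puf60 with exon 5 and 36.1% for Puf60 without exon 5. All 3 n-TStga copies were enriched for Puf60 with exon 5, against 1 of 3 for Rbm38 and 0 of 3 for Puf60 without exon 5. Their medians in the authors' deposited tables were 1.10 for Rbm38, 1.19 for Puf60 with exon 5 and -0.48 for Puf60 without exon 5, and all 3 had an unadjusted p-value under 0.05 for Rbm38 too, so the calls differed through the adjusted p-value. Of the lysine n-TKctt copies 2 of 11 were enriched for Rbm38 and 0 of 16 for Puf60 without exon 5. For Puf60 with exon 5 the count was 5 of 14, near the 39.1% of its table. The n-TKctt medians in the authors' deposited tables were -1.44 for Rbm38, -0.95 for Puf60 with exon 5 and -2.29 for Puf60 without exon 5. Copies of that 1 anticodon thus lay on both sides of input: n-TKctt17 had 2.22 for Rbm38, 1.98 for Puf60 with exon 5 and -0.41 for Puf60 without exon 5 in the authors' deposited tables.

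For 6 amino acids no listed tRNA gene was enriched for Puf60 with exon 5: cysteine, phenylalanine, isoleucine, methionine, valine and tyrosine. Of their 58 clusters, 3 had a deposited p-value under 0.05 before adjustment. For Puf60 without exon 5 there were 17 such amino acids with 201 clusters, of which 7 had a p-value under 0.05. The shares enriched over all clusters were 39.1% with exon 5 and 36.1% without it. These amino acids were selected for having no enriched gene, which by itself lowers their counts of small p-values. Some had few listed genes, such as phenylalanine with 4 and cysteine with 6 for Puf60 with exon 5.

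**Figure D3:**
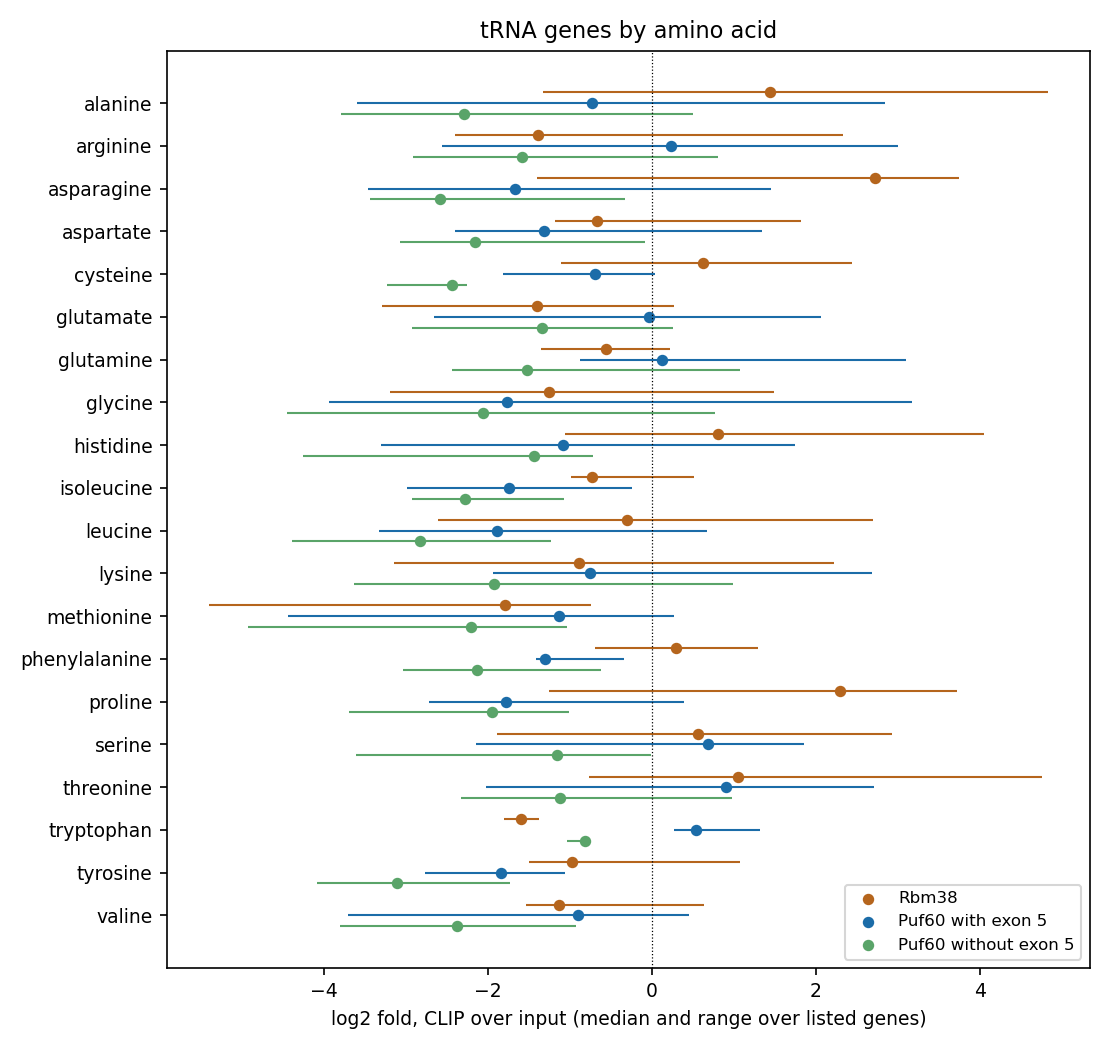
Log2 fold of tRNA clusters by amino acid and protein, from the authors' deposited tables. For Rbm38 the medians above 0 include asparagine (2.71), alanine (1.44), threonine (1.04), cysteine (0.62) and serine (0.56), and for Puf60 without exon 5 the medians of all 20 amino acids lie below 0.

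Alanine gave the most enriched tRNA clusters for Rbm38. Of 20 listed alanine genes 13 were enriched, beside 5 of 21 for Puf60 with exon 5 and 0 of 22 for Puf60 without exon 5. The shares over all clusters were 50.9%, 39.1% and 36.1%, in the same order. Alanine genes differed by anticodon: all 8 listed n-TAtgc copies were enriched for Rbm38, with log2 folds of 1.24 to 4.83 in the authors' deposited table. The n-TAtgc medians in the authors' deposited tables were 4.18 for Rbm38, 0.54 for Puf60 with exon 5 and -1.22 for Puf60 without exon 5. For n-TAagc the medians of the authors' deposited tables were 1.32, -1.19 and -2.65, and for n-TAcgc -1.22, -1.40 and -2.61, in the same order.

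The highest Rbm38 value of any tRNA cluster was at n-TAtgc5 (chr5:125409472-125409543), with 4.83 for Rbm38, 0.19 for Puf60 with exon 5 and -1.88 for Puf60 without exon 5, as the authors' deposited tables give them. The copy n-TAtgc11 (chr13:21240945-21241016) was close to it, with 4.82, 0.46 and -2.01 in the authors' deposited tables. The copies n-TAtgc3 and n-TAtgc4 had the same Rbm38 value of 4.18 in the authors' deposited table. Copies can share values: 4, 2 and 8 tRNA clusters for Rbm38, Puf60 with exon 5 and Puf60 without exon 5 had exactly the values of another tRNA cluster in their table, and 14, 14 and 18 had a log2 fold within 0.01 of another copy of their anticodon.

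For threonine and asparagine genes 6 of 11 and 3 of 7 were enriched for Rbm38, shares near the 50.9% of all clusters in its table. The threonine gene n-TTcgt2 had 4.76 for Rbm38, 2.71 for Puf60 with exon 5 and 0.98 for Puf60 without exon 5, as the authors' deposited tables give them. The asparagine gene n-TNgtt9 was high for Rbm38 alone, with 3.50, 0.04 and -1.81 in the authors' deposited tables. Single genes of families that otherwise lay low also stood out: the leucine gene n-TLcaa2 (chr13:21914838-21914943) had 2.70 for Rbm38 (enriched), -2.27 for Puf60 with exon 5 and -3.06 for Puf60 without exon 5 in the authors' deposited tables. It was the only enriched copy among 4 n-TLcaa genes listed for Rbm38.

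Histidine, proline and cysteine genes had few listed copies, and single ones were high for Rbm38. The histidine gene n-THgtg1 had 4.05 for Rbm38, 1.74 for Puf60 with exon 5 and -0.71 for Puf60 without exon 5 in the authors' deposited tables, and the first pair of values was enriched. The proline gene n-TPtgg8 had 3.72, 0.39 and -1.01 in the authors' deposited tables, in the same order and with the same calls. Cysteine genes had 3 of 6 enriched for Rbm38, next to 50.9% of its table, 0 of 6 for Puf60 with exon 5 and 0 of 5 for Puf60 without exon 5, with 4, 0 and 0 at an unadjusted p-value under 0.05. Another 7 amino acids had no enriched gene for Rbm38, and of their 38 clusters 7 had an unadjusted p-value under 0.05. Selecting amino acids with no enriched gene by itself lowers that count.

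**Figure D4:**
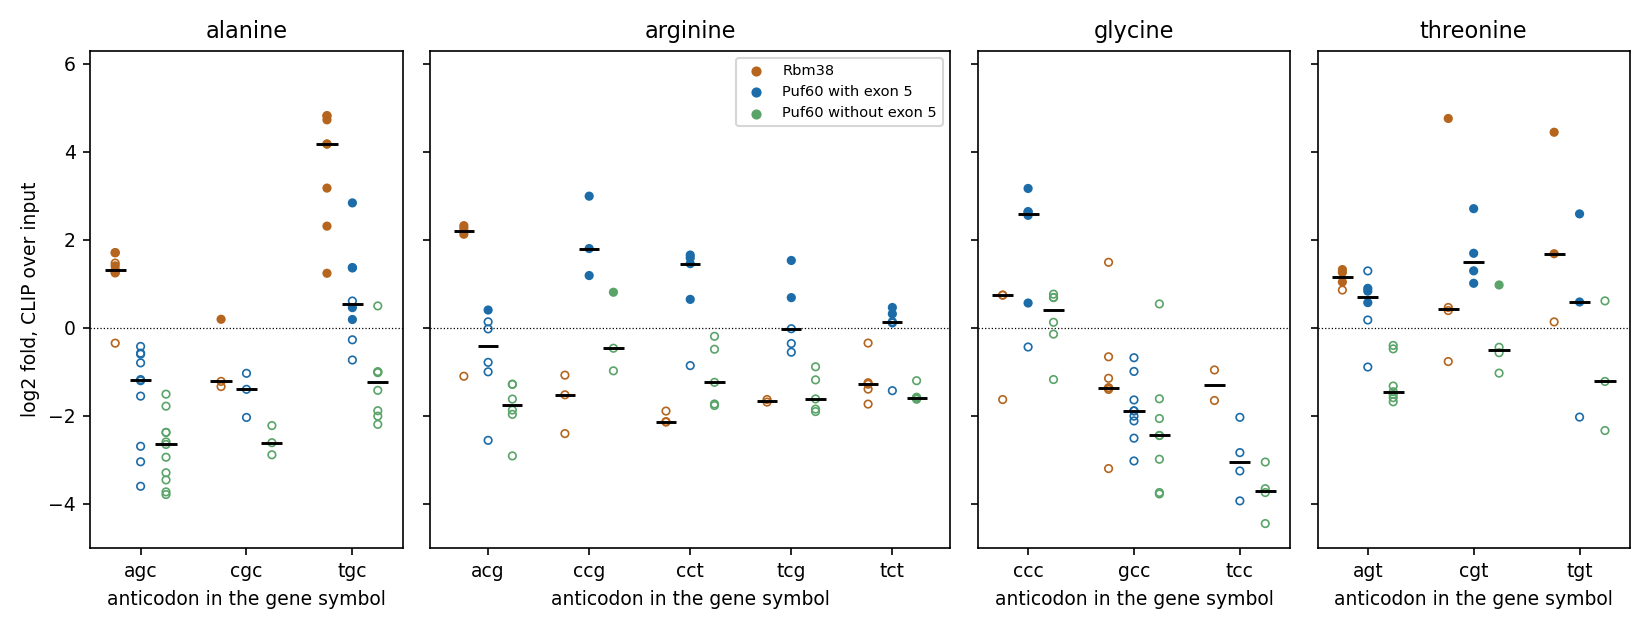
Log2 fold of tRNA clusters by anticodon for alanine, arginine, glycine and threonine, from the authors' deposited tables, with enriched clusters filled and the median as a black bar. The n-TAtgc copies lie highest for Rbm38, and the n-TRccg, n-TRcct and n-TGccc copies lie higher for Puf60 with exon 5 than for Rbm38.

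No listed methionine gene was enriched, with 0 of 9 for Rbm38 and 0 of 14 for each Puf60 isoform. The shares over all clusters were 50.9%, 39.1% and 36.1% for Rbm38, Puf60 with exon 5 and Puf60 without exon 5. Below input lay 9 of 9, 9 of 14 and 14 of 14 methionine genes, next to 11.2%, 26.2% and 27.8% of all clusters. For Puf60 with exon 5 the methionine genes were spread, from -4.44 to 0.27 in the authors' deposited table. The methionine medians in the authors' deposited tables were -1.79, -1.14 and -2.20, in the same order. The symbols do not separate initiator from elongator copies. The lowest tRNA value of the Rbm38 table was at n-TMcat11 (chr3:90475860-90475931), with -5.40 for Rbm38, -1.95 for Puf60 with exon 5 and -3.26 for Puf60 without exon 5, as the authors' deposited tables give them. The lowest value of both Puf60 tables was at n-TMcat2 (chr13:21907111-21907182), with -3.82 for Rbm38, -4.44 for Puf60 with exon 5 and -4.92 for Puf60 without exon 5 in the authors' deposited tables.

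Between the isoforms, the amino acids with at least 5 pairs had median differences of 0.55 (aspartate) to 2.30 (cysteine). The largest difference at a single gene was 2.96, at the serine gene n-TSgct3, which had 0.01 with the exon and -2.95 for the form lacking it in the authors' deposited tables, so a large difference did not need enrichment in either table. At n-TGccc6 and n-TRcct4 the difference was 2.70 in the authors' deposited tables, and both were enriched with exon 5. The alanine gene n-TAagc8 was the 1 gene with a difference past -1: it had -3.04 with the exon and -1.51 for the form lacking it in the authors' deposited tables.

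Between Rbm38 and Puf60 with exon 5, tRNA genes differed in both directions. Over 157 shared tRNA genes the median difference, Rbm38 minus Puf60 with exon 5, was 0.66 in the authors' deposited tables (quartiles -0.74 and 1.89), next to 0.64 over 14851 matched clusters of all kinds. It was above 0 at 101 genes (64.3%; 61.9% of all matched clusters), at least 1 at 67 tRNA genes (42.7%; 42.5% of all matched clusters) and -1 or less at 34 (21.7%; 23.4% of all matched clusters), so these counts lay at the background. The differences had an SD of 1.90 over the tRNA genes and 2.37 over all matched clusters, and they ran from n-TLcaa2 at 4.96 and n-TAtgc5 at 4.63 to n-TRccg2 at -4.07 and n-TRcct1 at -3.73 in the authors' deposited tables. Anticodon medians of the difference ran from -3.59 to 3.33, and 26 of 43 were above 0. Pearson's r across the 157 genes was 0.431 and Spearman's rho 0.357.

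Set against Puf60 without exon 5, Rbm38 was higher at most tRNA genes. The difference was above 0 at 135 of 162 shared genes (83.3%; 66.1% of 16078 matched clusters) and at least 1 at 113 (69.8%; 48.6%). It was -1 or less at 9 genes (5.56%; 20.9%). The median difference in the authors' deposited tables was 1.90 (quartiles 0.57 and 3.15), next to 0.92 over all matched clusters. The largest differences in the authors' deposited tables were 6.82 at n-TAtgc11 and 6.71 at n-TAtgc5, and the lowest was -2.14 at n-TMcat11.

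**Figure D5:**
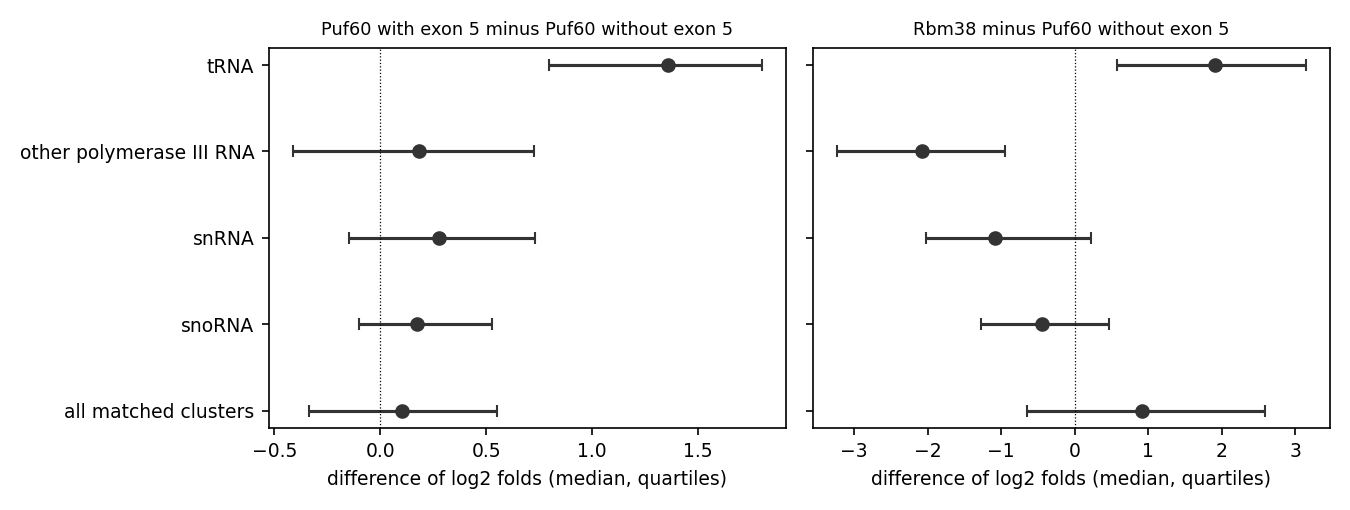
Differences in log2 fold (x axis) by RNA class for Puf60 with minus without exon 5 (left) and Rbm38 minus Puf60 without exon 5 (right), with points at the median and bars over the quartiles, from the authors' deposited tables. With exon 5 minus without exon 5, the tRNA genes (n = 227, median 1.36) lie above snoRNA (n = 226, 0.17), snRNA (n = 163, 0.28) and all matched clusters (n = 20187, 0.10), and on the right tRNA (1.90) lies above 0 while snoRNA (-0.44), snRNA (-1.08) and other polymerase III RNA (-2.08) lie below.

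Other classes of short RNA were set beside the tRNA genes. In the authors' deposited tables snoRNA clusters had medians of -3.17, -2.72 and -2.89 for Rbm38, Puf60 with exon 5 and Puf60 without exon 5, and snRNA clusters -1.10, -0.42 and -0.76. Of the snoRNA clusters 0 of 264, 4 of 245 and 3 of 250 were enriched (0%, 1.63% and 1.20%), and of the snRNA clusters 3 of 129, 12 of 180 and 14 of 187 (2.33%, 6.67% and 7.49%), next to 25.3%, 25.1% and 1.21% of the tRNA clusters. For Puf60 without exon 5 the snoRNA share was thus close to that of the tRNA clusters and the snRNA share above it. Other polymerase III genes had medians of -3.77, -1.63 and -1.66 in the authors' deposited tables. Of their clusters 2 of 35, 2 of 33 and 1 of 29 were enriched (5.71%, 6.06% and 3.45%), and 94.3%, 84.8% and 82.8% lay below input. Unlike most of that class, Rny1, a Y RNA gene, was enriched in all 3 tables, with 1.67, 1.29 and 0.50 in the authors' deposited tables.

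The tRNA clusters were 50 to 200 nt wide on a 50 nt grid, with a median of 50 nt for Rbm38 and 100 nt for both Puf60 tables, while tRNA genes had a median length of 72 nt. Clusters that touched a tRNA gene but were centred outside it, and so were not counted, numbered 22, 25 and 16 for Rbm38, Puf60 with exon 5 and Puf60 without exon 5, with 2, 3 and 1 enriched. The clusters covered a median of 68.5%, 90.4% and 91.5% of the tRNA gene for Rbm38, Puf60 with exon 5 and Puf60 without exon 5, and less than 50% of it at 19, 12 and 14 genes. Windows of that width do not place a contact at a base of the tRNA or separate the mature tRNA from its precursor. Of the 403 tRNA genes 139 overlap another annotated gene, whose reads cannot be told apart from the tRNA by position. Chromosome 13, which holds 105 of the genes, gave 52, 81 and 85 of the clusters and 16, 19 and 1 of the enriched ones for Rbm38, Puf60 with exon 5 and Puf60 without exon 5.

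The deposited adjusted p-value was stricter than the p-value at some tRNA genes. Of 68, 66 and 11 tRNA clusters with a p-value under 0.05 for Rbm38, Puf60 with exon 5 and Puf60 without exon 5, 26, 8 and 8 had an adjusted p-value of 1. The glycine gene n-TGgcc2 was one of them, with 1.49 for Rbm38, a p-value of 2.75e-129 and an adjusted p-value of 1 in the authors' deposited table. Ranking of p-values alone does not give such pairs of values, and what else the adjustment used is not given in the sources used here.

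Messenger RNAs of the tRNA pathway also carried clusters. Among 23 genes that charge tRNAs (the aminoacyl-tRNA synthetases and partners), 16 of 18 with a cluster had an enriched one for Rbm38, 14 of 20 for Puf60 with exon 5 and 17 of 21 for Puf60 without exon 5. The same share over protein-coding genes with a cluster was 83.4%, 64.3% and 62.6%. Counted by cluster, 68 of 210, 128 of 255 and 124 of 268 were enriched in the charging genes. Over all protein-coding genes the cluster counts were 22707 of 42998, 12070 of 30668 and 12216 of 33495. The charging share by cluster was thus lower than that background for Rbm38 and higher for both Puf60 isoforms. For genes that make and export tRNAs, 14 of 16, 11 of 17 and 8 of 13 with a cluster had an enriched one. For genes that modify tRNAs the counts were 12 of 15, 9 of 14 and 11 of 15. Xpot, the exportin that carries tRNAs out of the nucleus, had 10 of 23 clusters enriched for Rbm38, 16 of 28 for Puf60 with exon 5 and 17 of 35 for Puf60 without exon 5. Ssb, the La protein that binds the 3′ end of new polymerase III transcripts, had 8 of 11, 6 of 8 and 7 of 11. The shares over all clusters of the tables were 50.9%, 39.1% and 36.1%.

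The cells' label was set against marker genes. Of 11 neuroblast and neuron genes 7, 7 and 6 had a cluster for Rbm38, Puf60 with exon 5 and Puf60 without exon 5, among them Map1b, Stmn2, Phox2a and Hand2. Isl1, Nefl and Nefm had none in any table. Of 9 genes of other cell types 3, 1 and 0 had a cluster. They were Ptprc, Col1a1 and Aqp4 for Rbm38, each with an enriched cluster, and Gfap for Puf60 with exon 5, not enriched. Among 21852 protein-coding genes, 7450, 6508 and 6719 had a cluster for Rbm38, Puf60 with exon 5 and Puf60 without exon 5. A cluster needs both expression and crosslinking, so these counts do not measure the cell type directly.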

How the data were processed

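The data are 3 tables of iCLIP clusters from N2A cells, 1 each for Rbm38, Puf60 with exon 5 and Puf60 without exon 5. Per the file headers, the authors deposited a log2 fold, a p-value and its adjusted form for each cluster, with no values per library, so the depth is unknown. The submitters' processing notes name TopHat, edgeR, NCBIM37 and mm10, with no roles. The log2 fold was read as CLIP over input.

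Start positions were turned to 1-based. A cluster was a tRNA cluster when its centre lay in an n-T gene of the RefSeq table (GRCm38.p6). Strand was read from the 50 nt grid of cluster starts. Clusters below input were called from 1 minus the deposited p-value, adjusted by the Benjamini-Hochberg method. Genes were paired between tables by symbol, and other clusters by largest mutual overlap. Scripts ran in Python 3.11.15 with pandas 2.3.3, numpy 2.4.6 and scipy 1.17.1 and were tested on simulated data. Named genes were the 8 highest enriched and 4 lowest per table, the 6 widest differences each way per pair of tables, the highest gene per amino acid and those enriched in all tables. The genes of the printed sequences and the examples of other RNA classes and pathway lists fall outside that rule and were chosen after their values were seen. The members and lists were chosen with earlier results of these data known.

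Alternatives were a stricter threshold of 0.01, the Benjamini-Hochberg adjustment of the deposited p-values, a fold minimum, other overlap and pairing rules, equal values counted once, genes in no other gene and pairs enriched in at least 1 table. Centring, 1 value per anticodon and leaving out chromosome 13 were chosen after seeing the data.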

Additional observations from a re-analysis of the deposited data

How the results depend on the processing

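The counts of enriched tRNA clusters depended on how enrichment and overlap were defined. With the Benjamini-Hochberg adjustment of the deposited p-values, 68 clusters were enriched for Rbm38 and 11 for Puf60 without exon 5, against 42 and 3. With a log2 fold of at least 1 as a further condition, 36 were enriched for Puf60 with exon 5, against 58, and 1 for Puf60 without exon 5. The share of the whole table under either rule is not given here. Those counts therefore cannot be set against the whole-table shares above, which used the deposited adjusted p-value. Where the gene had to lie wholly inside the cluster, fewer clusters were left, with 8 of 36, 21 of 92 and 1 of 94 enriched for Rbm38, Puf60 with exon 5 and Puf60 without exon 5, and medians of -0.95, -1.11 and -2.45. Without chromosome 13, which leaves 114 clusters, 26 were enriched for Rbm38. The overlap and chromosome rules kept the deposited call. By that call 50.9%, 39.1% and 36.1% of all clusters were enriched for Rbm38, Puf60 with exon 5 and Puf60 without exon 5.

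Centring on the table median moved the Rbm38 median to -1.52. Among pairs enriched in at least 1 table, the median difference was 2.00 with minus without exon 5, 1.15 for Rbm38 minus Puf60 with exon 5 and 4.03 for Rbm38 minus Puf60 without exon 5. All 58 isoform pairs were kept for being enriched with exon 5, and 42 of the 44 pairs of Rbm38 and Puf60 without exon 5 for Rbm38, which by itself raises those differences, so they say nothing about stability. Centred on all matched clusters, the last pair of differences was 0.020 and 0.99, and the isoform difference was 1.25. No result changed direction under the alternatives run.

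No paired analysis was possible because the tables hold no values per library. Leaving out replicates and the replicate block were not run for that reason, and restricting clusters or pairs to a gene's own strand was not run because the reference used gives no strand. Unknown depth, a single input library per protein, copies with shared sequence and the difference in induction time limit every value above.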
